A study of Mus musculus with 61 samples.

Results

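The JNK kinases are switched on by a chain of kinases, and the genes described here stand at the top of that chain. They are 6 MAP3 kinases (Map3k1, Map3k4, Map3k5, Map3k7, Map3k11 and Map3k12) and 2 scaffolds (Mapk8ip1 and Mapk8ip3). They were taken by symbol, and all 8 were found among the 23927 gene rows of the count table. The table holds 61 single cells from ovaries of wild-type (WT) CD-1 mice at postnatal day 5, an outbred stock, collected 6 hours after an intraperitoneal injection. The groups are 16 oocytes and 16 granulosa cells of mice given vehicle (control), and 16 oocytes and 13 granulosa cells of mice given doxorubicin, a DNA-damaging anti-cancer drug. The title of the series concerns JNK of oocytes and ovarian damage by such drugs, so the comparisons ask how these transcripts differ after the drug in each cell type, and between the cell types without it.

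MAP3 kinases phosphorylate the MAP2 kinases MAP2K4 and MAP2K7, which in turn phosphorylate JNK. Several of them also feed the p38 and NF-kappaB pathways, and scaffolds of the JIP family hold the kinases of one chain together and tie them to motor proteins. Their activity is set largely by phosphorylation and by binding partners, which transcript counts do not measure. In the ovary at this age most oocytes lie in primordial follicles, each wrapped by a few somatic granulosa cells, and such oocytes are known for dying after DNA damage.

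Each library is 1 cell and no animal was named, so each group was counted as 1 sample. With no replicates, differences between groups could not be tested, and none was. A group's level is the sum of the counts of its cells divided by the sum of their totals, scaled to CPM (counts per 1000000 counts). Each interval is a 95% interval of the counting error alone, without the spread among cells or animals. The libraries carry no molecular identifiers, so PCR copies of a molecule count as separate reads. The cells held between 6834594 and 31262609 counts, so that 1 CPM stands for several reads in every cell. A count of 0 allows up to 0.0960 CPM in the deepest cell and up to 0.439 CPM in the shallowest.

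The labels were set against markers before the groups were compared. The 19 oocyte markers summed to 20536 CPM or more in each of the 32 oocytes, and the 20 granulosa markers to at most 3181 CPM there. The libraries labelled granulosa were mixed. Oocyte markers summed to more than granulosa markers in 6 of 16 control and 8 of 13 doxorubicin libraries, with medians of 1868 and 9960 CPM of oocyte markers. The median sum of stroma markers was 815 CPM in the control granulosa libraries and 688 CPM after the drug, and doxorubicin granulosa cell 15 held 21086 CPM of blood and immune markers. For the 8 genes, a ratio that rests on these libraries is also given by a marker rule where the rule moved it by over 1.5 times or moved it across 2-fold. Their part in the results was not tested beyond that.

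The start regions of the genes at both ends of the results are shown first. Map3k1 is the only one of the 8 that was at least 2-fold higher in doxorubicin oocytes, and Mapk8ip3 is the only one that was at least 2-fold higher in doxorubicin granulosa cells. The 250 bases before each RefSeq start (GRCm38.p6, minus strand) are chr13:111808994-111809243 for Map3k1 and chr17:24936978-24937227 for Mapk8ip3. They are printed 5′ to 3′, with GC boxes (GGGCGG on either strand) and the CCAAT box in capitals.
Map3k1: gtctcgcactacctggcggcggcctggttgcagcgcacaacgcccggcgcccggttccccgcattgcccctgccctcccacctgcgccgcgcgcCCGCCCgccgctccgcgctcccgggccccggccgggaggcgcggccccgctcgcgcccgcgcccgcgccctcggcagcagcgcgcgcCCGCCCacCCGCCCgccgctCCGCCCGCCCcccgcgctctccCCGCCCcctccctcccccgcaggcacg
Mapk8ip3: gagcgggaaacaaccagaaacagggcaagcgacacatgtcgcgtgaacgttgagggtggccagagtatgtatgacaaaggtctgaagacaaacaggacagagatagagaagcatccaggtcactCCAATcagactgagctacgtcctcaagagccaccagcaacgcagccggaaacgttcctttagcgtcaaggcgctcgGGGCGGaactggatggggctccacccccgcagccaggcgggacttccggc
The Map3k1 window holds 6 GC boxes, 2 of which overlap, and 85.2% of its bases are G or C. The Mapk8ip3 window holds 1 GC box and 1 CCAAT box at 58.0% G and C. Over all 32851 RefSeq windows of this length the median was 52.4%, 32.7% held a GC box and 33.8% held a CCAAT box (CCAAT on either strand). RefSeq windows were matched for 7 of the 8 genes. A GC box was found for 6 of these, a CCAAT box for Mapk8ip3 alone and an E-box (CANNTG) for 5, the last against 66.2% of all windows. None held the AP-1 site TGANTCA (6.75% of all windows), the cAMP response element TGACGTCA (1.55%) or a p53 half-site (7.13%). An E-box match reads as one on both strands. These are letter matches in 1 window per start, not binding sites.

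Oocytes held most of the 8 transcripts in nearly every cell, while granulosa libraries held them in patches. At least 1 CPM was reached by a median of 7 of the 8 genes in control and in doxorubicin oocytes, with 7 or more in 11 of 16 and 12 of 16 cells. The median was 4 genes in both granulosa groups, with at most 7 in a control and at most 5 in a doxorubicin library. In doxorubicin granulosa cell 1 none of the 8 reached 1 CPM. Over all genes, a median of 11857 reached 1 CPM in control and 11695 in doxorubicin oocytes. In the granulosa libraries these medians were 6963.5 and 6814 genes. Fewer genes of any kind were thus detected there, and nothing particular to the 8 genes is read from these counts. The summed level of the 8 genes had similar medians of 197 and 201 CPM in the control and doxorubicin granulosa libraries, against 496 and 563 CPM in the oocytes. The plot of single cells shows the compact clouds of the oocytes beside granulosa libraries that sit either near 0 or high.

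**Figure D1:**
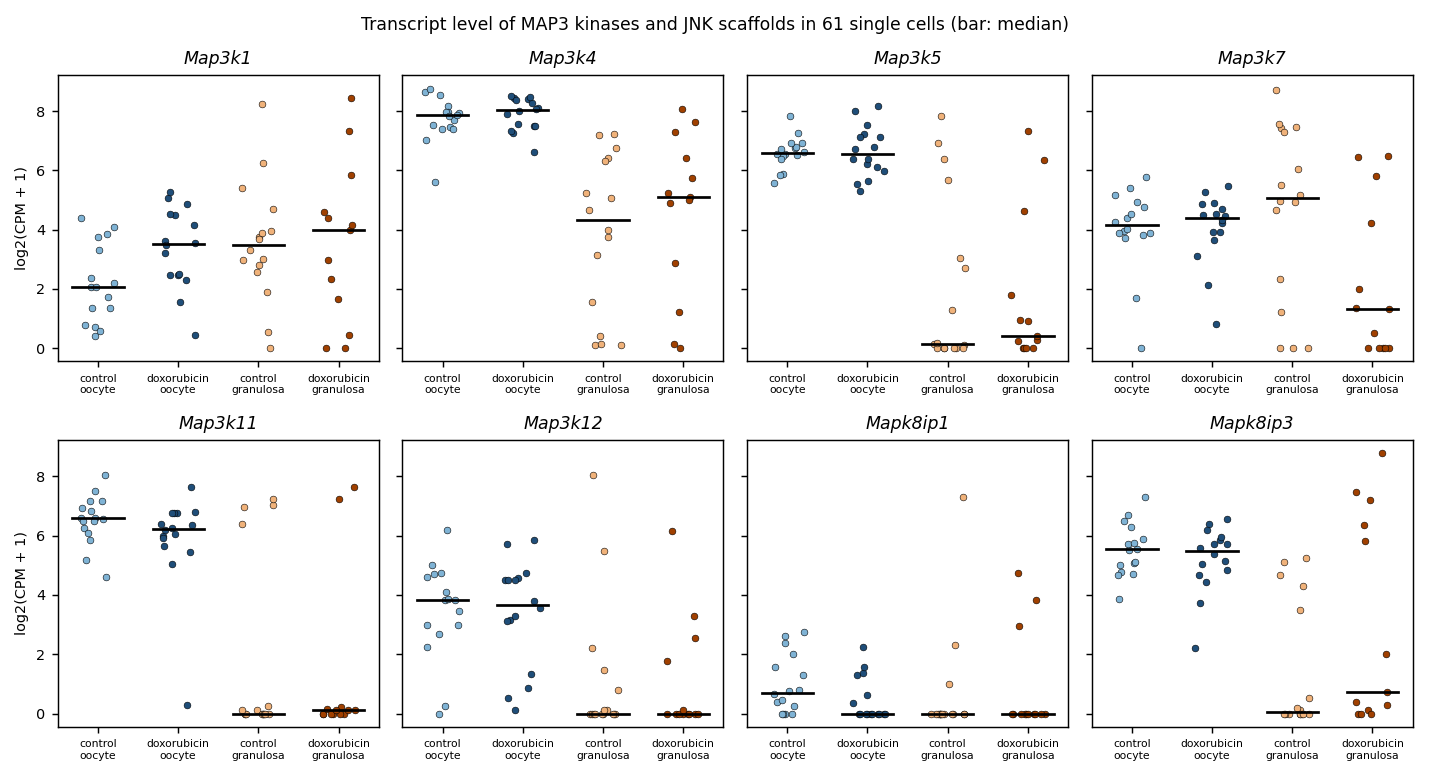
Level of each of the 8 genes in 61 single cells as log2(CPM + 1), by cell type and treatment; each point is 1 cell and the bar is the median of the group. Map3k4 and Map3k5 are present in all 32 oocytes, and Map3k11 and Mapk8ip1 are near 0 in most granulosa libraries.

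Within control oocytes, levels of different genes were compared per kilobase of the longest annotated transcript. Map3k4 was the most abundant at 42.8 CPM per kilobase, followed by Map3k11 at 28.6 and Map3k5 at 18.9. Mapk8ip3 came next at 6.90 CPM per kilobase, then Map3k12 at 3.63 and Map3k7 at 3.50. Map3k1 and Mapk8ip1 closed the order at 0.762 and 0.448 CPM per kilobase. Single cells kept this order to different degrees. Map3k5 lay above Mapk8ip3 in 16 of 16 control oocytes and Map3k4 above Map3k11 in 14 of 16. Map3k12 lay above Map3k7 in only 6 of 16, so those neighbours were not separated. In doxorubicin oocytes Map3k5 and Map3k11 changed places, at 21.4 and 20.2 CPM per kilobase, and Map3k5 was the higher in 8 of 16 cells. With the mean length of the coding transcripts in place of the longest, the order in control oocytes was the same, with 80.5 CPM per kilobase for Map3k4 and 52.3 for Map3k11.

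The order in control granulosa cells differed and was looser. Map3k7 led there at 12.7 CPM per kilobase, before Map3k4 at 7.86 and Map3k11 at 7.27, and Mapk8ip3 was last at 1.09. Map3k7 lay above Map3k4 in 9 of 16 libraries, and Map3k11 above Map3k5 in only 3 of 16. With mean coding lengths Map3k4 led at 14.8 CPM per kilobase, before Map3k11 at 13.3 and Map3k7 at 13.1. No neighbours in either granulosa group were separated in every cell.

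Without the drug, 4 of the 8 genes were at least 2-fold higher in oocytes than in granulosa cells and 3 were at least 2-fold lower. Of the 12373 genes that reached 5 CPM in one of the groups, 29% were that much higher and 31.3% that much lower, so both shares among the 8 have to be read against a contrast in which most genes differ. The median log2 ratio of the 8 genes was 1.05, against -0.03 over those 12373 genes. For none of the 8 did the cells of the groups separate fully, as they did for 3.7% of all genes.

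Map3k4 encodes MEKK4, which is opened by proteins of the GADD45 family (chromosome 17, 12227621 to 12318796, GRCm38, minus strand). It came nearest to separating the cell types. Its level was 233 CPM in control oocytes (interval 230 to 235) and 42.8 CPM in control granulosa cells (41.8 to 43.7). The oocytes ran from 47.7 over a median of 231 to 427 CPM, and the granulosa libraries from 0.0762 over 19.7 to 150 CPM. The log2 ratio was 2.44 (2.41 to 2.48), and 14 of 16 oocytes lay above the highest granulosa library. It was 2.08 in granulosa libraries with more granulosa than oocyte markers. Its activators were lower in oocytes: Gadd45g was at 15.7 CPM against 265 CPM in granulosa cells, Gadd45b at 12.96 against 226 CPM and Gadd45a at 27.4 against 120 CPM. The log2 ratio of Gadd45b was -4.12, with -3.42 when control granulosa cell 3 was left out and -1.75 in granulosa libraries with the higher granulosa sum. The gene whose level followed that of Map3k4 most closely was Pard3, with a Spearman rho of 0.80 across the 61 cells, among 9868 genes searched. Those cells share the large difference between the types, and no other of the 8 genes had a match of 0.8 or more.

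Map3k5 encodes ASK1, a kinase of oxidative stress that thioredoxin holds inactive (chromosome 10, 19934472 to 20142753, plus strand). It was detected in all 32 oocytes at 38.1 CPM or more. Control oocytes had 103 CPM (101 to 104) and control granulosa cells 28.2 CPM (27.5 to 29.0), a log2 ratio of 1.86 (1.82 to 1.91). The oocytes ran from 46.5 over a median of 95.1 to 228 CPM. The granulosa libraries ran from 0 over 0.115 to 226 CPM, and 7 of 16 reached 1 CPM (43.8%, exact binomial interval 19.8% to 70.1%). Control granulosa cell 12 supplied 39.5% of the granulosa counts, and without it the ratio was 2.52. In granulosa libraries with the higher granulosa sum it was 1.19. Txn1, which encodes thioredoxin, had the opposite pattern at 35.3 CPM in oocytes and 224 CPM in granulosa cells.

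Map3k11 encodes MLK3, which is switched on by Rac and Cdc42 (chromosome 19, 5688742 to 5702865, plus strand). It was an all-or-nothing transcript in granulosa libraries. Control oocytes had 111 CPM (110 to 113), with cells from 23.3 over a median of 94.96 to 263 CPM. In control granulosa cells the median was 0 CPM, yet 4 of 16 libraries held between 82.2 and 151 CPM and the group level was 28.3 CPM (27.6 to 29.1). The log2 ratio was 1.98 (1.93 to 2.02), 1.28 in granulosa libraries with the higher granulosa sum, and 1.05 within the marker limits of fewer than 200 CPM of granulosa markers in oocytes and at least 5000 CPM in granulosa cells. Map3k11 shares 89 exon bases with Pcnx3 on the other strand, and whether counting used strand is not given in the sources used here.

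Mapk8ip3 encodes JIP3, a scaffold that links JNK to kinesin and dynein on axons and vesicles (chromosome 17, 24892153 to 24936977, minus strand). Control oocytes had 50.2 CPM (49.2 to 51.2), with cells from 13.5 over a median of 45.5 to 157 CPM. Control granulosa cells had 7.92 CPM (7.52 to 8.35), with cells from 0 over 0.0373 to 37.2 CPM. The log2 ratio was 2.66 (2.58 to 2.74), and 9 of 16 oocytes lay above every granulosa library. Its exons overlap those of Eme2 on the same strand by 1557 bases, and those of Mrps34 and Nme3 on the other strand by 1309 and 577 bases, so reads could be shared with these genes.

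The 3 genes that were lower in oocytes were Map3k7, Map3k1 and Mapk8ip1. Map3k7 encodes TAK1, the kinase of TGF-beta and cytokine signalling that works with TAB proteins (chromosome 4, 31964097 to 32023467, plus strand). It was at 20.2 CPM in control oocytes (19.6 to 20.9) and 73.2 CPM in control granulosa cells (71.9 to 74.4), a log2 ratio of -1.86 (-1.91 to -1.80). Oocytes ran from 0 over a median of 16.7 to 53.6 CPM and granulosa libraries from 0 over 32.4 to 416 CPM. The highest libraries were control granulosa cells 14 and 13 at 416 and 190 CPM, which had 4844 and 13316 CPM of stroma markers against 2302 and 516 CPM of granulosa markers. Cell 14 also held 10121 CPM of oocyte markers. Control granulosa cells 1 and 3, at 177 and 173 CPM of Map3k7, had only 339 and 825 CPM of stroma markers. Cells 8 and 2, with 8404 and 8342 CPM of stroma markers, had 0 and 24.5 CPM of Map3k7. Over the 29 granulosa libraries of both groups, Map3k7 had a Spearman rho of 0.13 with the stroma marker sum. The ratio was -1.14 in granulosa libraries with the higher granulosa sum and -0.55 within the marker limits, where it was no longer 2-fold.

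Map3k1 encodes MEKK1, a large kinase that is also a ubiquitin ligase (chromosome 13, 111746428 to 111808993, minus strand). It was at 5.32 CPM in control oocytes (5.001 to 5.652) and 34.8 CPM in control granulosa cells (33.9 to 35.7), a log2 ratio of -2.71 (-2.81 to -2.62). Control granulosa cell 3 alone held 298 CPM and 59.1% of the granulosa counts, and without it the ratio was -1.52. The ratio was -2.02 in granulosa libraries with the higher granulosa sum and -1.61 within the marker limits. The low level in oocytes was shared by the group, since the highest control oocyte had 20.1 CPM.

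Mapk8ip1 encodes JIP1, the founding scaffold of the family (chromosome 2, 92383676 to 92401263, minus strand). It was barely present, at 1.47 CPM in control oocytes (1.30 to 1.65), where 6 of 16 cells reached 1 CPM. The 11.3 CPM of control granulosa cells (10.8 to 11.8) came from control granulosa cell 3 for 96.7%, and the median library had 0. The log2 ratio of -2.94 turned to 1.90 without that cell and to 1.30 in libraries with the higher granulosa sum, so no direction can be read. Map3k12 encodes DLK, the kinase of axon injury (chromosome 15, 102497646 to 102517064, minus strand). It stood at 18.8 CPM in control oocytes and 15.99 CPM in control granulosa cells. Control granulosa cell 12 held 80.8% of the granulosa counts, and the log2 ratio of 0.24 became 2.54 without it. It was -0.45 in libraries with the higher granulosa sum and 1.25 within the marker limits. Of the control oocytes 14 of 16 reached 1 CPM of Map3k12, against 4 of 16 granulosa libraries. Its exons share 1573 bases with Pcbp2 on the other strand, which had 111 CPM in control granulosa cells.

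The dependence on single libraries was general among granulosa cells. The highest library gave between 21.6% and 96.7% of a gene's counts in control and between 32.1% and 79.7% in doxorubicin granulosa cells. In oocytes the highest cell gave between 12.8% and 26.8% in controls and between 10.2% and 33.7% after the drug.

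**Figure D2:**
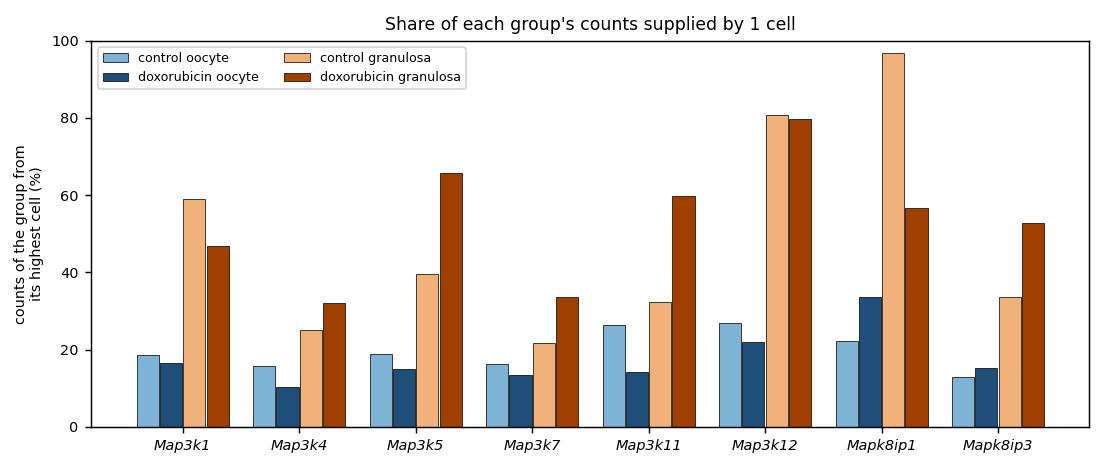
Percent of each group's counts of a gene that its highest cell supplied, for the 8 genes in the 4 groups. Control granulosa cell 3 gave 96.7% of the Mapk8ip1 counts and control granulosa cell 12 gave 80.8% of the Map3k12 counts, while the oocyte bars end at 33.7%.

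Some granulosa libraries carried as much oocyte marker RNA as an oocyte, and Map3k5 and Mapk8ip3 stayed below the oocyte range in them. Of 29 granulosa libraries 3 had an oocyte marker sum within the range of the oocytes, all of them after doxorubicin. Doxorubicin granulosa cell 1 had 47150 CPM of oocyte markers but 0.104 CPM of Map3k4, 0.208 CPM of Map3k5 and 0 of Map3k11. Doxorubicin granulosa cell 4 had 27535 CPM of oocyte markers with 36.4 CPM of Map3k4 and 0 of Map3k5 and Map3k11. Doxorubicin granulosa cell 6 had 36055 CPM of oocyte markers with 157 CPM of Map3k4, 199 CPM of Map3k11 and 0 of Map3k5. In the 32 oocytes the lowest levels were 47.7 CPM for Map3k4, 38.1 CPM for Map3k5 and 3.63 CPM for Mapk8ip3. All 3 libraries lay below every oocyte for Map3k5 and for Mapk8ip3, the latter at 0.208, 0 and 0.0924 CPM. Map3k4 and Map3k11 of doxorubicin granulosa cell 6 lay within the oocyte range. Over all genes, 3780, 4656 and 6371 reached 1 CPM in these libraries, against medians of 11857 and 11695 in the oocyte groups. Nothing particular to the 8 genes is therefore read from these low levels.

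**Figure D3:**
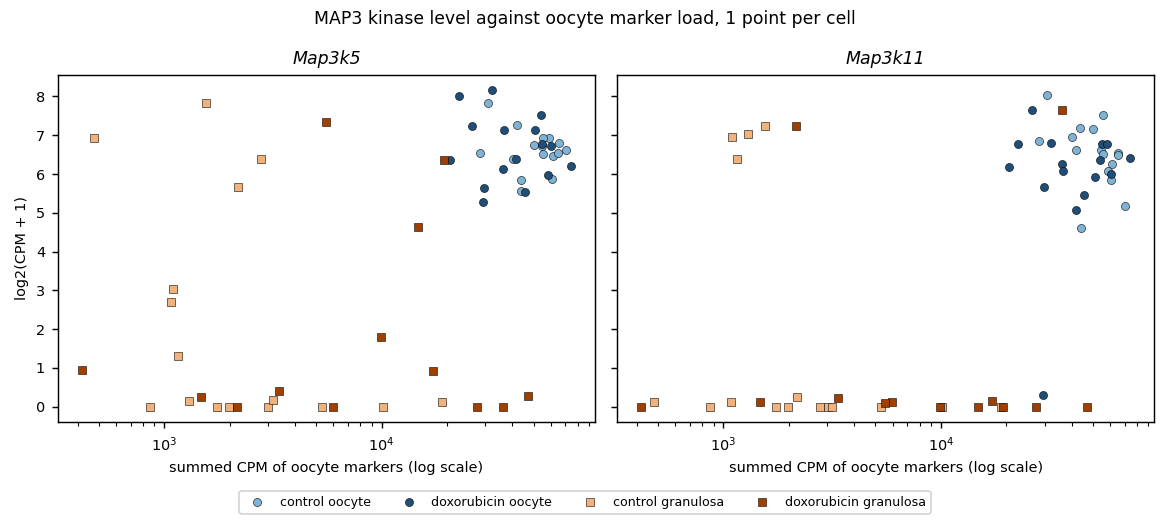
Level of Map3k5 (left) and Map3k11 (right) as log2(CPM + 1) against the summed CPM of 19 oocyte markers on a log scale; circles are oocytes, squares granulosa libraries. The 3 granulosa libraries furthest right reach the range of the oocytes on the x axis and have 0.208 CPM of Map3k5 or less.

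After doxorubicin the 8 transcripts as a group kept close to their control level in oocytes. The median log2 ratio was -0.07, against 0.01 over the 11119 genes that reached 5 CPM in one of the groups. Of the 8 genes 7 reached it, and 1 of these 7 was at least 2-fold higher and 0 were at least 2-fold lower. Over all genes 6.3% were that much higher and 2.45% that much lower, and nothing about the 8 genes as a group is read from 1 gene. For none of the 8, and for 0% of all genes, did the cells of the groups separate fully.

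That gene was Map3k1. Control oocytes ran from 0.333 over a median of 3.20 to 20.1 CPM, and doxorubicin oocytes from 0.367 over 10.4 to 37.7 CPM. The highest doxorubicin oocytes were 12 at 37.7 CPM, 3 at 32.3 CPM, 5 at 28.3 CPM, 4 at 22.1 CPM and 2 at 21.8 CPM, and these 5 of 16 lay above every control. Of the doxorubicin oocytes 14 of 16 lay above the control median, and the groups overlapped over most of their range. The group level was 14.3 CPM (13.7 to 14.8) against 5.32 CPM, a log2 ratio of 1.42 (1.32 to 1.53). Leaving out any 1 of the 32 cells gave between 1.26 and 1.63.

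The size of the Map3k1 difference depended on which oocytes were kept. In oocytes with fewer than 200 CPM of granulosa markers the levels were 12.3 CPM in 11 doxorubicin and 7.82 CPM in 10 control cells. The log2 ratio was then 0.66 (0.53 to 0.78), below 2-fold, and 3 of 11 doxorubicin cells lay above the highest control. With stroma markers also under 200 CPM it was 0.52 in 9 cells a group. The control cells removed by the granulosa limit were low in Map3k1, at 0.485 to 3.23 CPM. The doxorubicin oocytes it removed were both high and low, at 1.93 to 37.7 CPM. Across the 32 oocytes Map3k1 had a Spearman rho of 0.05 with the granulosa marker sum and 0.38 with the sum of 7 endothelium markers. That sum had a median of 25.8 CPM after the drug and 2.76 CPM without it. The rho with it was not particular to Map3k1. Over the same oocytes of both treatments it was 0.43 for Map3k4 and 0.42 for Mapk8ip3, and from -0.17 to 0.11 for the other genes. The largest parts of the endothelium sum after the drug were Tek, at 18.9 CPM against 2.59 CPM without it, and Pecam1, at 8.55 against 1.85 CPM. After the drug Cdh5, Kdr, Emcn, Cldn5 and Tie1 were each at 1.06 CPM or less. Of these, Cdh5, Kdr, Emcn and Cldn5 were higher than without the drug, and Tie1 was lower. Cldn5 was at 1.06 against 0.659 CPM, Kdr at 0.839 against 0.00511 CPM and Emcn at 0.694 against 0.00511 CPM. Cdh5 was at 0.213 against 0.0153 CPM and Tie1 at 0.0895 against 0.772 CPM. The part of the removed cells or of these marker genes in the Map3k1 difference was not tested.

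**Figure D4:**
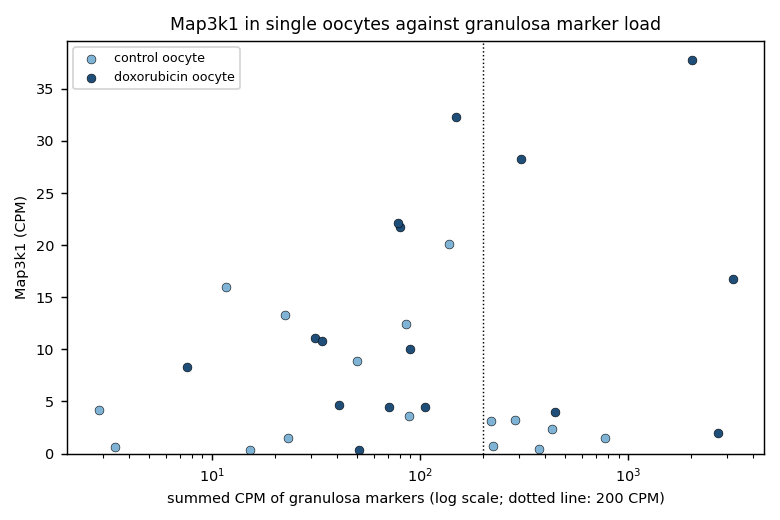
Map3k1 in CPM in 16 control and 16 doxorubicin oocytes against the summed CPM of 20 granulosa markers on a log scale, with 200 CPM dotted. The 5 doxorubicin oocytes above the highest control (20.1 CPM) lie on both sides of the line, and the 6 control oocytes right of it have 3.23 CPM or less.

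The 3 kinases most abundant in oocytes, Map3k4, Map3k5 and Map3k11, each differed by less than 1.5-fold after the drug. Map3k4 was at 252 CPM after the drug (249.2 to 253.9) and 233 CPM in controls. Its log2 ratio was 0.11 (0.09 to 0.13), with doxorubicin cells from 97.4 over 261 to 362 CPM, all inside the control range. Map3k5 was at 117 CPM (115 to 118) against 103 CPM, a ratio of 0.19 (0.16 to 0.21), while its medians were 93.7 and 95.1 CPM. Doxorubicin oocytes 8 and 12, at 285 and 259 CPM, lay above the highest control, and without the first the ratio was 0.044. Of the MEKK4 activators, Gadd45a had a ratio of -0.01, Gadd45b one of 0.34 and Gadd45g one of -0.92. Of the ASK1 partners, Txn1 had a ratio of 0.35, the adaptors Daxx and Traf2 had 0.21 and -0.71, and the phosphatase gene Ppp5c had -0.11.

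Map3k11 was the lowest of the abundant kinases after the drug. Its level was 78.7 CPM (77.4 to 80.0) against 111 CPM, a log2 ratio of -0.50 (-0.53 to -0.47). Doxorubicin oocytes ran from 0.225 over a median of 73.5 to 200 CPM, and 5 of 16 lay above the control median. Doxorubicin oocyte 9, at 0.225 CPM, was the only oocyte under the lowest control at 23.3 CPM, and it also had the highest granulosa marker sum of all oocytes at 3181 CPM. Doxorubicin oocytes 11 and 12, with 2696 and 2033 CPM of granulosa markers, had 72.1 and 108 CPM of Map3k11. Over the 32 oocytes the Spearman rho of Map3k11 with the granulosa marker sum was -0.02. Without control oocyte 16, the deepest library, the ratio was -0.31. In oocytes under 200 CPM of granulosa markers it was -0.22. Its upstream GTPases Cdc42 and Rac1 had ratios of 0.26 and 0.07.

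The other 4 genes gave no 2-fold difference at a usable level. Map3k7 was at 19.5 CPM after the drug and 20.2 CPM in controls, with a log2 ratio of -0.05 (-0.12 to 0.01). Its partners Tab1, Tab2 and Tab3 had ratios of -0.39, -0.45 and -0.07. Map3k12 was at 17.7 CPM and 18.8 CPM, a ratio of -0.09 (-0.16 to -0.02) that ran from -0.34 to 0.20 when 1 cell was left out. Mapk8ip3 was at 46.0 CPM and 50.2 CPM, a ratio of -0.12 (-0.17 to -0.08) that was -0.54 in oocytes under 200 CPM of granulosa markers. Mapk8ip1, at 0.582 CPM against 1.47 CPM, had a ratio of -1.33 (-1.67 to -1.01) below the level used for counting. The ratio was -2.42 in oocytes under 200 CPM of granulosa markers and -2.25 with stroma markers also under 200 CPM. Mapk8ip1 was at 0 in 10 of 16 doxorubicin and 4 of 16 control oocytes.

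**Figure D5:**
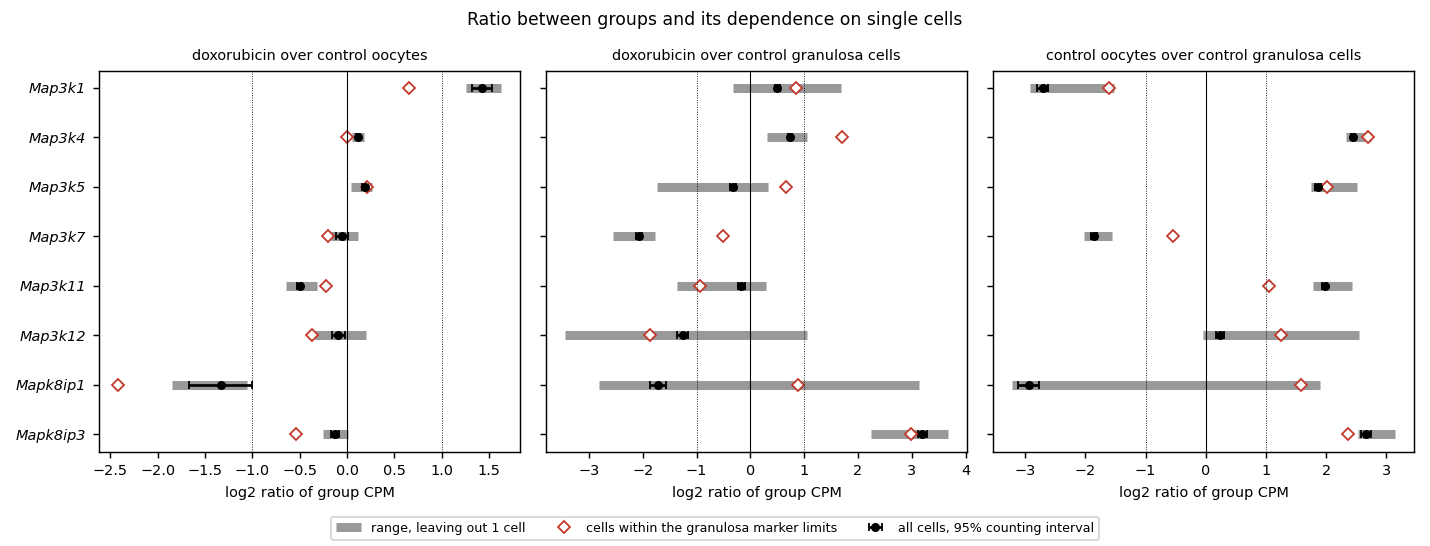
Log2 ratio of group CPM for the 8 genes in the 3 comparisons; points are all cells with the 95% counting interval, grey bars the range when each cell is left out, open diamonds the cells within the granulosa marker limits, and dotted lines 2-fold. In oocytes the grey bars are short, from 1.26 to 1.63 for Map3k1, while Mapk8ip1 in granulosa cells runs from -2.80 to 3.13.

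The granulosa comparison gave larger ratios with far less support from single cells. The median log2 ratio of the 8 genes was -0.24, against -0.03 over 12194 genes. Of the 8 genes 1 was at least 2-fold higher and 3 were at least 2-fold lower, where 20.6% of all genes were that much higher and 20% that much lower. With so many genes past 2-fold in this contrast, nothing particular to the 8 genes is read from these counts. No gene of the 8 and 0% of all genes had separate groups.

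Mapk8ip3 was the gene with the higher level. Doxorubicin granulosa libraries ran from 0 over a median of 0.649 to 443 CPM, and control libraries from 0 over 0.0373 to 37.2 CPM. Libraries 14, 12, 9, 10 and 13 of the doxorubicin group, at 443, 176, 147, 80.3 and 55.8 CPM, lay above every control, and 7 of 13 were under 1 CPM. The group levels were 72.3 CPM (70.9 to 73.7) and 7.92 CPM, a log2 ratio of 3.19 (3.11 to 3.27). Doxorubicin granulosa cell 14 gave 52.8% of the counts, and the ratio was 2.24 without it. In libraries with the higher granulosa sum it was 3.66, from 5 doxorubicin and 10 control libraries, and within the marker limits it was 2.98. The medians went the other way within the limits, 0.312 CPM after the drug and 10.3 CPM in controls. There 1 of 5 doxorubicin libraries, cell 14, lay above the highest control. With both rules the medians were 1.67 and 10.3 CPM. The medians of log2(CPM + 1) differed by 0.67, less than 2-fold, since the difference lay in a part of the libraries. Eme2, which shares exons with Mapk8ip3 on the same strand, was at 23.0 CPM after the drug and 0.0222 CPM in controls. The reads of the pair cannot be told apart here. Mrps34, on the other strand, was at 42.2 CPM after the drug and 72.6 CPM in controls.

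Map3k7 was the most evenly lower gene. Doxorubicin libraries ran from 0 over a median of 1.48 to 89.0 CPM and control libraries from 0 over 32.4 to 416 CPM. Of the doxorubicin libraries 7 of 13 reached 1 CPM, against 13 of 16 controls. The group levels were 17.5 CPM (16.8 to 18.2) and 73.2 CPM, a log2 ratio of -2.07 (-2.13 to -2.00), and leaving out any 1 library gave between -2.55 and -1.77. In libraries with the higher granulosa sum the ratio was -0.82, within the marker limits -0.52 and with both rules -0.20, so the 2-fold call ended under each of the 3 marker rules. Tab2, which encodes a partner of TAK1, had a ratio of 1.15 and Tab1 one of -0.90. These were 2.52 and -4.28 in libraries with the higher granulosa sum.

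The remaining calls, Map3k12 and Mapk8ip1, each rested on 1 or 2 libraries. Map3k12 was at 6.68 CPM (6.27 to 7.12) against 15.99 CPM, a log2 ratio of -1.26 (-1.37 to -1.15). It was 1.05 without control granulosa cell 12 and -3.45 without doxorubicin granulosa cell 2, which had 70.6 CPM and 79.7% of the counts. It was -3.17 in libraries with the higher granulosa sum and -1.86 within the marker limits. Mapk8ip1 was at 3.45 CPM against 11.3 CPM, a ratio of -1.71 (-1.86 to -1.57) that was 3.13 without control granulosa cell 3 and 1.07 in libraries with the higher granulosa sum. Map3k1 was below 2-fold over all libraries, at 49.2 CPM against 34.8 CPM, a ratio of 0.50 (0.45 to 0.55). It was 1.69 without control granulosa cell 3 and -0.31 without doxorubicin granulosa cell 12, which had 343 CPM. In libraries with the higher granulosa sum it was 1.29 and with both rules 1.13, past 2-fold, and within the marker limits 0.85.

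Among the 3 kinases that are abundant in oocytes, Map3k4 was the only one with a broad presence in granulosa cells. It reached 1 CPM in 11 of 13 doxorubicin and 12 of 16 control libraries. The levels were 71.3 CPM (69.9 to 72.7) and 42.8 CPM, with medians of 33.7 and 19.7 CPM and a log2 ratio of 0.74 (0.70 to 0.78). The ratio was 0.31 without doxorubicin granulosa cell 14 and past 2-fold by the marker rules, at 1.15 in libraries with the higher granulosa sum and 1.69 within the limits. Map3k5 was at 22.6 CPM and 28.2 CPM, a ratio of -0.32 (-0.39 to -0.26) that was -1.73 without doxorubicin granulosa cell 8 and 0.33 without control granulosa cell 12. Within the marker limits it was 0.67. Map3k11 was at 25.3 CPM and 28.3 CPM, a ratio of -0.17 (-0.23 to -0.10) that was -0.86 in libraries with the higher granulosa sum and -0.93 within the limits. All but a small part of it came from doxorubicin granulosa cells 6 and 15, at 199 and 151 CPM, and no other doxorubicin library reached 1 CPM.

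The other genes of the pathway were taken from lists of 49: other MAP3 kinases, MAP4 kinases, scaffolds, partners of the 8 genes, the MAP2 and JNK kinases below them, and JNK phosphatases. In oocytes 41 of the 49 had at least 5 CPM, of which 1 was at least 2-fold higher after the drug and 1 at least 2-fold lower, where all genes had 6.3% and 2.45%. The higher one was Dusp1, a phosphatase that removes phosphate from JNK, at 43.3 CPM against 10.9 CPM, a log2 ratio of 1.99 (1.92 to 2.06). Its median went the other way, 0.0888 CPM after the drug and 4.21 CPM in controls. Of the doxorubicin oocytes 5 of 16 lay above the highest control, while the median cell held almost none. The lower one was Map3k10, which encodes MLK2, a relative of MLK3, at 4.44 CPM against 8.90 CPM. Its ratio was -1.003 (-1.13 to -0.88), and -0.67 without control oocyte 16. The 5 kinases below, Map2k4, Map2k7, Mapk8, Mapk9 and Mapk10, gave no 2-fold difference, and their median ratio was 0.02.

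In granulosa cells 41 of the 49 had at least 5 CPM, of which 7 were at least 2-fold higher and 8 at least 2-fold lower. These shares too lie near the background of 20.6% and 20%. The higher genes least dependent on 1 library were Arrb2, Map3k6 and Map2k7. Arrb2, which encodes the scaffold beta-arrestin 2, was at 38.9 CPM against 1.97 CPM, with 8 of 13 libraries above the highest control. Its log2 ratio was 4.31 (4.15 to 4.46), and 3.67 in libraries with the higher granulosa sum. Map3k6, which encodes ASK2, the partner of ASK1, was at 80.9 CPM against 8.02 CPM. Its ratio of 3.34 turned to -1.79 in libraries with the higher granulosa sum. Both genes were at similar levels in control oocytes, 38.0 CPM for Arrb2 and 106 CPM for Map3k6. Map2k7, the MAP2 kinase that is specific for JNK, had a ratio of 2.71 that was 1.44 in those libraries. The lower genes were Mapk10, which encodes JNK3, Taok2, a MAP3 kinase of the TAO family, and Daxx, an adaptor of ASK1. Mapk10 was at 0.0350 CPM against 17.4 CPM, Taok2 at 6.74 CPM against 21.3 CPM and Daxx at 20.1 CPM against 61.2 CPM. The ratio of Taok2 was -1.66, and -0.30 in libraries with the higher granulosa sum, while that of Daxx was -1.61 and -1.54.

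Between the control cell types, 10 of the 43 listed genes with at least 5 CPM were at least 2-fold higher in oocytes and 11 at least 2-fold lower, where all genes had 29% and 31.3%. Among the 16 genes listed only as partners of the 8 genes, 0 were higher and 7 lower, against the same 29% and 31.3%. Map3k6, a partner of Map3k5 that was listed with the MAP3 kinases, was higher, at 106 CPM against 8.02 CPM. Map3k9, which encodes the mixed lineage kinase MLK1, was at 16.8 CPM in oocytes and 0.00556 CPM in granulosa cells, where 1 count was found over all 16 libraries. Map3k6 had a log2 ratio of 3.73 (3.65 to 3.81) and Arrb2 one of 4.27 (4.12 to 4.43), and 16 of 16 oocytes lay above every granulosa library for Arrb2. The lower genes were Dusp1 at -5.71 (-5.78 to -5.65), the MAP4 kinase Tnik at -5.10 (-5.31 to -4.90) and Gadd45g at -4.08 (-4.13 to -4.03). Dusp1 and Gadd45g are known as rapidly induced stress-response genes, and had 573 and 265 CPM in control granulosa cells.

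The levels of the 8 genes varied largely apart from one another among oocytes. Over the 32 oocytes the highest Spearman rho between members was 0.47, for Map3k5 with Map3k11 and for Map3k4 with Mapk8ip1, and the lowest was -0.30, for Map3k1 with Map3k11. These oocytes share 1 batch label and differ in treatment, and the values are given as a description.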

How the data were processed

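Single cells were turned into amplified cDNA libraries with a full-length kit for very low input, as the labels' protocols describe, and all carry 1 batch label. The dose of doxorubicin is written as 10 with a unit that is no dose unit, so it stays uncertain. What the authors deposited is a table of estimated counts, 34.0% of whose nonzero values are not whole. The submitters' processing notes name Partek, Bowtie2, HISAT2, DESeq2 and the build mm10, without roles. Versions, annotation, filters and strand setting are not given in the sources used here. All 61 cell columns were matched by name and used, also that of doxorubicin oocyte 4, whose raw data the series text calls lost. Rows whose symbols had become dates (22, with 0.144% of the counts) stayed in the totals.

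Estimated counts were rounded. Group CPM has an exact Poisson interval, the log2 ratio an exact conditional binomial (Clopper-Pearson) interval and shares of cells an exact binomial interval. A group under 3 counts is set to 3. A difference is counted from 2-fold, among genes that reach 5 CPM in one of the groups, and the median uses all 8 genes. Summed counts were 195716771 in control and 178783290 in doxorubicin oocytes, and 179838277 and 143056499 in the granulosa groups. The most alike cells of a group, control oocytes 2 and 6, differed far beyond sampling noise (chi-square per degree of freedom 56.7). The members and all lists were chosen with earlier results of these data known. Genes named beside the 8 are their listed partners and, per comparison, up to 3 higher and 3 lower list genes past 2-fold, ranked by the smallest log2 ratio over leaving out each cell. The kinases below them, the overlapping genes and single markers were added after their values were seen. Genes of like pattern had at least 20 CPM in a group and 1 CPM in at least 10 cells, and are printed from a Spearman rho of 0.8.

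Coordinates and lengths come from GENCODE M21 on GRCm38, the assembly that mm10 names, and start regions from RefSeq (GRCm38.p6). The calculation was tested on data simulated with counting error alone. They held no spread among cells, so the test says nothing about that spread. Alternatives weighted all cells equally, took the difference of their median log2(CPM + 1), scaled the group sums with edgeR or DESeq2, changed filters, folds, rounding or transcript length, thinned cells, kept libraries by markers, or left out each cell. The rules adding stroma markers or the higher own sum were chosen after seeing the data. The tools were R 4.3.3 (edgeR 4.0.16, DESeq2 1.42.0) and Python 3.11.15 (scipy 1.17.1, pandas 2.3.3, matplotlib 3.10.9, numpy 2.4.6).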

Additional observations from a re-analysis of the deposited data

How the results depend on the processing

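No paired analysis was possible because each group is 1 sample and no fit between groups was made, so the replicate numbers in the labels serve only as names. In doxorubicin over control oocytes the median log2 ratio of the 8 genes was -0.21 both under 200 CPM of granulosa markers and with stroma markers also under 200 CPM. By these rules 0 of the 8 genes were 2-fold higher, where all genes had 6.59% and 7.37%. Leaving out 1 cell gave medians from -0.14 to 0.047. With a minimum of 1 CPM or no filter, 1 gene (Mapk8ip1) counted as 2-fold lower, where all genes had 5.75% and 13.7%. In granulosa cells the median was -0.37 for the equal-weight mean, 0.18 for the medians of log2(CPM + 1), 0.39 for libraries with the higher granulosa sum, 0.76 within the marker limits and 0.97 with both rules. It ran from -0.68 to 0.39 when 1 library was left out. The number of genes at least 2-fold higher was 0 by the medians, 2 at 1.5-fold, 3 by the higher sum, 2 within the limits, 3 with both, and 1 to 2 over left-out libraries. Over all genes the share was 14.2% by the medians and 29.3% at 1.5-fold. By the 3 marker rules it was 20.8%, 23.3% and 22.6%, in the same order. The number lower was 1 in the medians and in each of the 3 marker rules, and 2 to 4 over left-out libraries. All genes had 13.7% lower by the medians and 22.3%, 24.2% and 26.7% by the 3 marker rules. Mapk8ip1 turned to 1.07 by the higher sum, 0.88 within the limits and 1.20 with both, and ran from -2.80 to 3.13 over left-out libraries. Map3k12 ran from -3.45 to 1.05. Between control cell types the median was 0.76 for the equal-weight mean, 3.67 for the medians (where all genes had 1.53), 1.14 with DESeq2 scaling, 1.23 by the higher sum, 1.42 within the limits and 1.51 with both, and 0.91 to 2.43 over left-out cells. The number lower was 1 by the medians, within the limits and with both, and 2 to 3 over left-out cells. By the first 3 of these settings all genes had 11.6%, 30.3% and 30.6% lower. Mapk8ip1 turned to 0.71 by the medians, 1.30 by the higher sum, 1.58 within the limits and 1.74 with both, and ran from -3.22 to 1.90. At 1.5-fold after the drug, 3 of 41 listed pathway genes were higher and 7 lower in oocytes, and 13 of 41 lower in granulosa cells. All genes had 11.8%, 7.73% and 29.8% at that fold. The cause of the differences between settings was not tested. Where a marker rule removed cells, fewer were left in a group, and the part of that was not tested either. Scaling moved all ratios by less than 0.1 on the log2 scale. No cell-share value left its binomial interval after thinning to 1000000 counts. The number of animals is unknown.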
